A study of Mus musculus with 6 samples.

Results

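A set of 9 genes of macrophage fusion and osteoclast differentiation was followed in cultured mouse microglia with and without Plcg2. They are Tnfrsf11a, Oscar, Mitf, Tmem178, Dcstamp, Ocstamp, Itgb3, Atp6v0d2 and Acp5, taken by symbol from the deposited expression table, and all 9 of 9 were found, each on 1 of its 54347 gene rows. The set was chosen by the measured TPM of Dcstamp and Tmem178, which are strongly lower in the knockout. The genotype differences of all 9 genes are therefore given as a description, without p-values, and support nothing on their own.

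The libraries fall into 2 genotypes of 3, Plcg2-/- (KO) and Plcg2+/+ (WT) littermates of the C57BL/6 strain, and carry their genotype and number as a name, such as KO 1. Every library came from neonatal microglia, the resident macrophages of brain tissue, cultured from the forebrain of pups aged 2 to 3 days. All cultures of both genotypes received GM-CSF, a myeloid growth factor, at 5 ng/mL with 10% serum during growth. Both were then reduced, to 0.5 ng/mL GM-CSF and 1% serum, for a rest of at least 72 h before RNA was taken. Nothing in the labels ties each library to its own animal, so the p-values reflect no more than how these libraries spread, which may be technical. Nor do they say which part of Plcg2 was removed or which cells lost it.

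Osteoclasts are bone-resorbing giant cells that form when precursors of the macrophage lineage fuse. In mouse precursors, the receptor RANK, encoded by Tnfrsf11a, acts together with receptors such as OSCAR that signal through adaptors with an immunoreceptor tyrosine-based activation motif (ITAM). The ITAM arm runs through phospholipase C gamma 2, the product of Plcg2, to calcium and calcineurin, and so to NFATc1, the transcription factor known as the master regulator of osteoclast genes. DC-STAMP, the product of Dcstamp, is needed for the fusion of osteoclasts and of macrophage giant cells.

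Values are TPM, a measure of transcript abundance, which are scaled for transcript length and to the same total in each library and carry no depth, so the depth behind a value is unknown. In bulk RNA, fewer cells expressing a gene and less of its RNA per cell cannot be told apart. Plcg2 itself was at 16.3 ± 0.374 TPM in KO and 46.6 ± 7.67 TPM in WT libraries (SD, n = 3 each), so transcript remained in the knockout. Mitochondrially encoded transcripts took 7.30 ± 2.01% of TPM in KO and 15.5 ± 1.87% in WT libraries. Between 20102 and 21598 genes were above 0 in a library. General macrophage markers were high, with Csf1r at 601 to 780 TPM in KO and 503 to 685 TPM in WT. Of the resident microglia markers, Cx3cr1 and Tmem119 were close to absent, at no more than 0.569 TPM in KO and 2.92 TPM in WT libraries. P2ry12 was present and higher in KO, at 18.9 to 27.7 TPM in KO and 2.20 to 9.29 TPM in WT libraries. The name osteoclast was also set against its markers. Of 6 mature osteoclast markers, Calcr was at or near 0 in every library (highest 0.0285 TPM) and Mmp9 stayed below 1 TPM, while Ctsk, Tcirg1, Nfatc1 and Car2 had a mean of at least 1. Tnfsf11, the gene of RANK ligand, was listed at 0 in all 6 libraries, and its decoy receptor gene Tnfrsf11b averaged 0.0161 TPM in KO and 0.0205 TPM in WT. With Calcr, Oscar and Ocstamp near 0, the 9 genes are described here as fusion and osteoclast genes of macrophages, not as a sign that osteoclasts were present.

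Promoter windows of Tmem178 and Acp5 are shown because these genes lie clearly lower in KO and varied together over the libraries. The windows run from 250 bases before to 50 bases after an annotated transcript start (RefSeq, GRCm38.p6). Capitals mark GGAAA, the core bound by NFAT factors, CATGTG or CACGTG, E-box forms bound by MITF and its relatives, and TGANTCA, the AP-1 site, searched on both strands. Tmem178 has its window at chr17:80944382-80944681 on the plus strand, and the Acp5 window lies at chr9:22130549-22130848 on the minus strand. It is 1 of 3 windows of Acp5, shown because it holds the most matches, and in it capitals on the other strand read TTTCC and CACATG.
Tmem178: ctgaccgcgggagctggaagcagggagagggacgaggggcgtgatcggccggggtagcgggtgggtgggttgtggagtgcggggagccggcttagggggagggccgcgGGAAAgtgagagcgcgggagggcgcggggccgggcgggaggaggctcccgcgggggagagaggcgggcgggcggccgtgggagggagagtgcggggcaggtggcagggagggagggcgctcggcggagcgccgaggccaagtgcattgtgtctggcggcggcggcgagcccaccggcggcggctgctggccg
Acp5: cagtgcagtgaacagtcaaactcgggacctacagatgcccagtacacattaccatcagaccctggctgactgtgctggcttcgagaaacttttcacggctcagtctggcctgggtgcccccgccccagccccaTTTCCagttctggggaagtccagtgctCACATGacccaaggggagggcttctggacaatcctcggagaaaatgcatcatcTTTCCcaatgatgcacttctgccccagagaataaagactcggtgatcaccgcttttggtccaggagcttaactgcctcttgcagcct
The Tmem178 window holds 1 NFAT core. The Acp5 window holds 2 NFAT cores and 1 E-box CATGTG, none of which overlap. Of all 32851 promoter windows, 61.3% hold GGAAA, 14.2% CATGTG, 7.15% CACGTG and 7.81% TGANTCA, so an NFAT core is common in windows of this length. Windows were found for 5 of the 9 genes (Tnfrsf11a, Oscar, Mitf, Tmem178 and Acp5). Among those that overlapped between genotypes, the Oscar window held 4 NFAT cores and 1 E-box CATGTG, more than either window shown. The windows of Mitf held 0 or 1 NFAT core and that of Tnfrsf11a held 0. The other Acp5 windows held 1 NFAT core each. A match is a description of the letters and not evidence of binding.

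Over the 9 genes, all 3 KO values lay below all 3 WT values for 6: Dcstamp, Tmem178, Ocstamp, Itgb3, Atp6v0d2 and Acp5. Mitf, Tnfrsf11a and Oscar overlapped between genotypes. Genes with a mean of at least 1 TPM over the 6 libraries were tested with limma on log2(TPM + 1), and 7 of the 9 passed that filter, Ocstamp and Oscar being too low. Dcstamp and Tmem178 passed only through their WT values, since both averaged below 1 TPM in KO. Of the 7, 4 (Acp5, Dcstamp, Itgb3 and Tmem178) were lower at an adjusted p below 0.05 and 0 higher. All 3 KO values lay below all 3 WT values for 5 of these 7, Ocstamp not being tested. Over all 12652 genes tested, 5.31% were lower and 15.6% higher at that threshold. Of these genes, 10.9% had all 3 KO values below all 3 WT values (43.3% without overlap in either direction). Dcstamp and Tmem178 were picked for their fall, so their calls were fixed in advance. Because the genotype contrast helped choose the set, nothing is read from these counts or from those that follow. With the replicate numbers as a block, 5 of the 7 passed, Atp6v0d2 being added. Without 1 library, 3 or 4 passed: Acp5, Dcstamp and Tmem178 each time, Itgb3 only without WT 3 and Atp6v0d2 only without KO 3. Itgb3 also did not pass with no filter, median-of-ratios scaling, quantile normalization or rescaling without mitochondrially encoded genes. Nor did it pass with a constant or a robust prior variance. Atp6v0d2 did pass with median-of-ratios scaling, quantile normalization or rescaling without mitochondrially encoded genes, and over genes of at least 5 TPM. With the replicate block and median-of-ratios scaling together, both Atp6v0d2 and Itgb3 passed. Ocstamp, far below 1 TPM, passed with no filter.

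**Figure D1:**
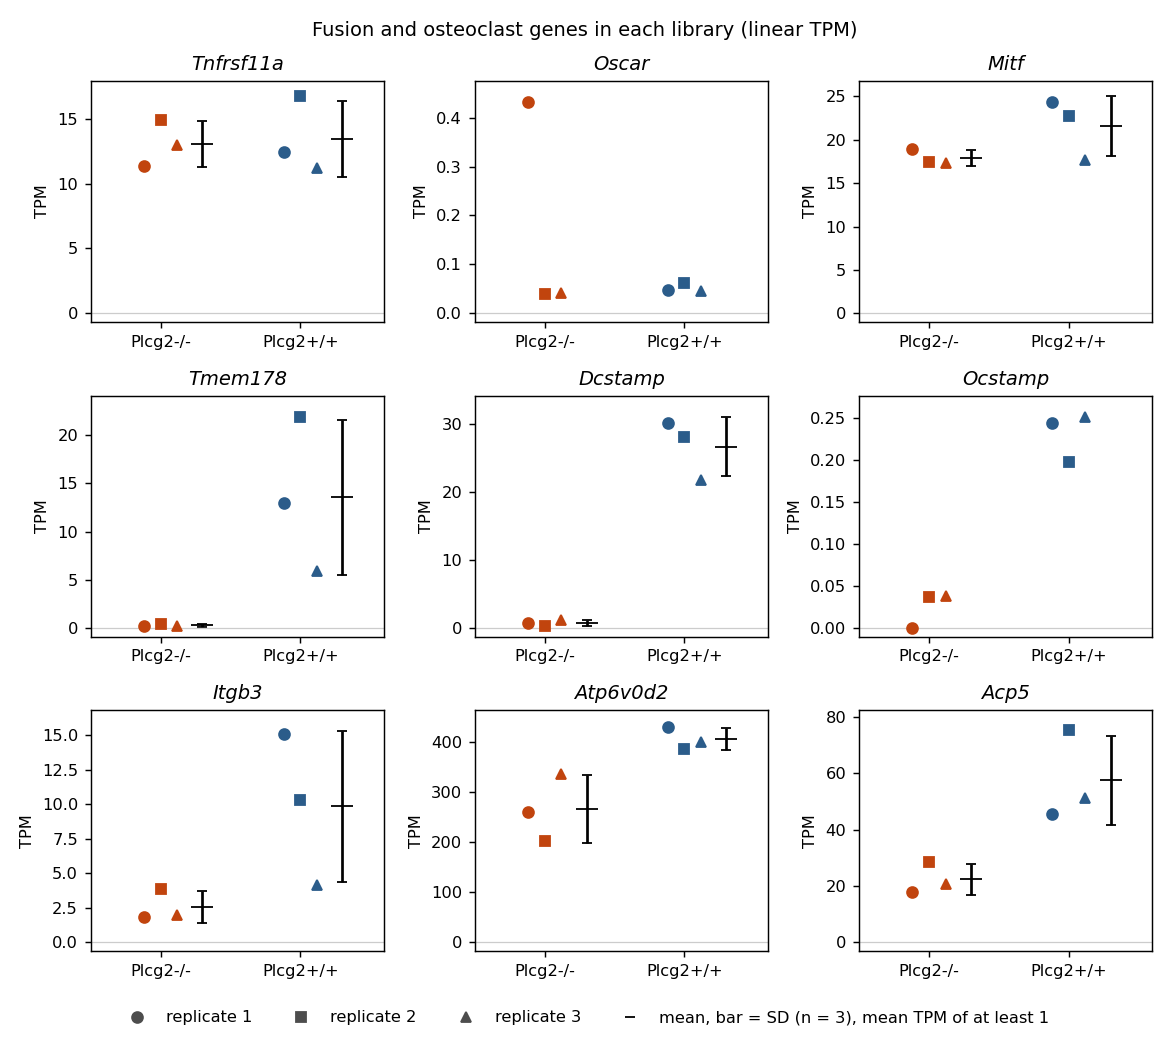
TPM of each of the 9 genes on a linear axis in the KO libraries (left, orange) and the WT libraries (right, blue), with marker shape giving the replicate number and, for genes with a mean of at least 1 TPM, the mean and SD beside the points (n = 3). Dcstamp and Tmem178 reach at most 1.18 and 0.444 TPM in KO libraries, against at least 21.8 and 5.87 TPM in WT libraries, while Tnfrsf11a overlaps between genotypes.

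Dcstamp and Ocstamp encode related multi-span membrane proteins of the fusing cell surface. Dcstamp (ENSMUSG00000022303.9, GRCm38 chr15:39745930-39760938, plus strand, protein coding) had 0.704, 0.315 and 1.18 TPM in KO 1, 2 and 3, against 30.2, 28.1 and 21.8 TPM in WT 1, 2 and 3. The groups were far apart, with the lowest WT library well above every KO library. Its means were 0.733 ± 0.432 TPM in KO and 26.7 ± 4.36 TPM in WT (SD, n = 3 each), so the knockout held 2.74% of the control level. On the log2(TPM + 1) scale, which understates the change of low genes, the difference was -4.02 ± 0.22 (SE), against a median of 0.19 over all genes tested. Ocstamp (ENSMUSG00000027670.4, GRCm38 chr2:165393760-165400405, minus strand) was listed at 0 TPM in KO 1 and had 0.0370 and 0.0383 TPM in KO 2 and 3, against 0.244, 0.198 and 0.251 TPM in WT. All of its values lay far below 1 TPM, so no fold change is given, though the groups did not overlap. Within WT libraries Ocstamp reached only 0.00703 to 0.0115 of the Dcstamp level in TPM.

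Tmem178 encodes a membrane protein of the endoplasmic reticulum that is known from mouse osteoclast precursors as a PLCgamma2-dependent brake on calcium release and NFATc1. Tmem178 (ENSMUSG00000024245.4, GRCm38 chr17:80944632-81001816, plus strand, protein coding) had 0.146, 0.444 and 0.181 TPM in KO 1, 2 and 3. In WT 1, 2 and 3 it had 12.9, 21.9 and 5.87 TPM. The control libraries spread widely, yet their lowest value was still far above the highest KO value. The means were 0.257 ± 0.163 TPM in KO and 13.6 ± 8.02 TPM in WT (SD, n = 3 each), the knockout being at 1.89% of the control. The log2 difference was -3.38 ± 0.41 (SE). In both genotypes the library numbered 2 was the highest. Since the values are low in KO, the size depends on the constant added, and the log2 difference was -5.16 for Tmem178 and -5.14 for Dcstamp with 0.1 in place of 1.

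Both receptors at the head of the pathway overlapped between the genotypes. Tnfrsf11a, which encodes RANK (ENSMUSG00000026321.7, GRCm38 chr1:105780718-105847981, plus strand), had 11.3, 14.9 and 13.0 TPM in KO 1, 2 and 3, against 12.4, 16.7 and 11.2 TPM in WT 1, 2 and 3. The genotypes overlapped over nearly the whole range. Its means were 13.1 ± 1.77 TPM in KO and 13.4 ± 2.92 TPM in WT (SD, n = 3 each), and the log2 difference was -0.03 ± 0.18 (SE), from -0.14 to 0.13 without 1 library. Oscar, a collagen-binding receptor that pairs with an ITAM adaptor (ENSMUSG00000054594.13, GRCm38 chr7:3609813-3616157, minus strand), had 0.432, 0.0397 and 0.0413 TPM in KO 1, 2 and 3. In WT libraries it had 0.0479, 0.0619 and 0.0455 TPM. KO 1 stood above the other 5 libraries, which lay close together near 0.

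Mitf encodes a transcription factor that works with NFATc1 and PU.1 on osteoclast genes in mice. Mitf (ENSMUSG00000035158.15, GRCm38 chr6:97807052-98021349, plus strand) had 19.0, 17.4 and 17.3 TPM in KO and 24.4, 22.7 and 17.7 TPM in WT libraries. WT 3 lay among the KO values while the other two controls lay above them. The means were 17.9 ± 0.948 TPM in KO and 21.6 ± 3.49 TPM in WT (SD, n = 3 each). Its log2 difference was -0.25 ± 0.14 (SE) as deposited and -0.45 ± 0.16 after median-of-ratios scaling, after which the median of all genes tested was -0.0054 in place of 0.19.

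Itgb3 encodes the integrin beta 3 chain, which with the alpha v chain of Itgav forms the adhesion receptor of the osteoclast sealing zone. Itgb3 (ENSMUSG00000020689.4, GRCm38 chr11:104608000-104670476, plus strand) had 1.87, 3.89 and 1.96 TPM in KO 1, 2 and 3, against 15.1, 10.3 and 4.17 TPM in WT 1, 2 and 3. The groups only just failed to meet, between KO 2 and WT 3. Its means were 2.57 ± 1.14 TPM in KO and 9.85 ± 5.48 TPM in WT (SD, n = 3 each), with a log2 difference of -1.50 ± 0.43 (SE). Between libraries of the same number the differences were -2.49, -1.21 and -0.80. Itgav, which is not among the 9 genes, had 25.7, 36.2 and 27.9 TPM in KO and 95.05, 83.8 and 61.8 TPM in WT libraries. Itgav fell by 1.39 ± 0.20 (SE) in log2(TPM + 1) (limma, adjusted p = 0.00556), and it passed in each fit without 1 library.

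Acp5 encodes tartrate-resistant acid phosphatase, the classic stain of osteoclasts, which macrophages also make. Acp5 (ENSMUSG00000001348.15, GRCm38 chr9:22126727-22135711, minus strand) had 17.8, 28.5 and 20.7 TPM in KO 1, 2 and 3, against 45.7, 75.5 and 51.4 TPM in WT 1, 2 and 3. The groups did not overlap, and the library numbered 2 was the highest in each. The means were 22.4 ± 5.51 TPM in KO and 57.5 ± 15.8 TPM in WT (SD, n = 3 each). The log2 difference was -1.32 ± 0.24 (SE), and between libraries of the same number it was -1.31, -1.38 and -1.27. An antisense gene, 6530413G14Rik, shares 137 of the 2030 exon bases of Acp5 but was at most at 0.390 TPM. The use of strand in the counting was not given in the sources used here.

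Atp6v0d2 encodes the d2 subunit of the vacuolar proton pump (V-ATPase), a form enriched in osteoclasts and macrophages that is needed for fusion in mice, while its paralog Atp6v0d1 is found in most tissues. Atp6v0d2 (ENSMUSG00000028238.6, GRCm38 chr4:19876841-19922605, minus strand) was by far the most abundant of the 9 genes, with 260.0, 202 and 336 TPM in KO 1, 2 and 3, against 430.1, 387 and 401 TPM in WT 1, 2 and 3. KO 3 came nearest to the controls without reaching them. The means were 266 ± 67.5 TPM in KO and 406 ± 21.8 TPM in WT (SD, n = 3 each), with a log2 difference of -0.64 ± 0.19 (SE). Atp6v0d1 was higher in KO, at 308, 243 and 314 TPM in KO and 184, 167 and 209.6 TPM in WT libraries. The ratio of Atp6v0d2 to Atp6v0d1, in TPM and therefore per length, was 0.845, 0.830 and 1.07 in KO and 2.34, 2.32 and 1.91 in WT libraries. The 2 genes were thus close to equal in KO, whereas d2 led in every WT library, as the plot of the d subunit genes shows. The mean ratio was 0.915 ± 0.134 in KO and 2.19 ± 0.243 in WT (SD, n = 3 each). A ratio within a library does not depend on its scaling.

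**Figure D2:**
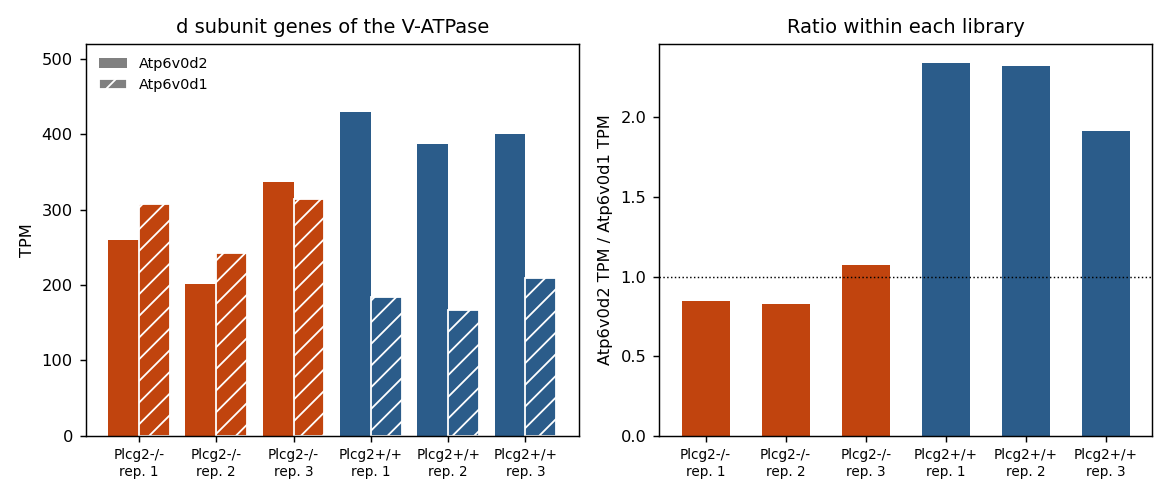
Left, TPM of Atp6v0d2 (plain bars) and Atp6v0d1 (hatched bars) in each library, KO in orange and WT in blue; right, the ratio of Atp6v0d2 to Atp6v0d1 in each library, with a dotted line at 1. The ratio lies between 0.830 and 1.07 in KO and between 1.91 and 2.34 in WT libraries.

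Among themselves the 9 genes covered a wide range. In KO libraries the order of mean TPM was Atp6v0d2, Acp5, Mitf, Tnfrsf11a, Itgb3, Dcstamp, Tmem178, Oscar and Ocstamp. The neighbours Acp5 and Mitf, Dcstamp and Tmem178, and Tmem178 and Oscar overlapped in range. In WT libraries the order was Atp6v0d2, Acp5, Dcstamp, Mitf, Tmem178, Tnfrsf11a, Itgb3, Ocstamp and Oscar, with overlapping neighbours from Dcstamp to Itgb3. Dcstamp and Tmem178 therefore overlapped in range with Mitf in WT and lay below it in KO. For 6 of the 7 genes that passed the filter, the KO library was the lower one for all 3 replicate numbers, and Tnfrsf11a was the exception. The 6 include Dcstamp and Tmem178, picked for their fall, and Mitf, whose log2 difference was only -0.03 for number 3. The share over all genes tested was not computed, so nothing is read from this count. As a description over the 6 libraries, which share the genotype split, log2(TPM + 1) of Tmem178 had a Pearson correlation of 0.96 with Dcstamp, 0.95 with Acp5 and 0.90 with Itgb3. The correlation of Tmem178 was 0.32 with Tnfrsf11a.

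**Figure D3:**
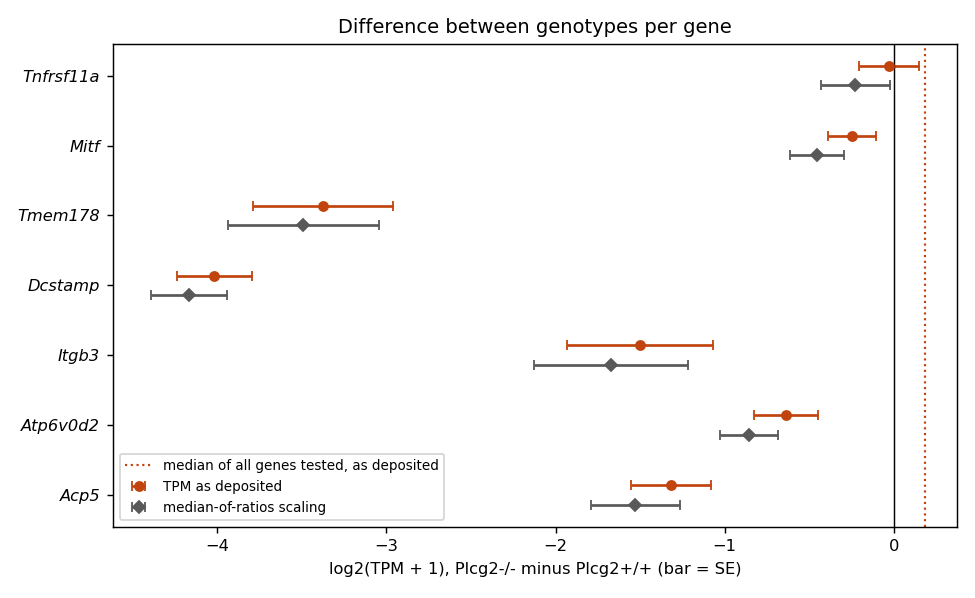
Difference in log2(TPM + 1), KO minus WT, with its SE, for the 7 genes with a mean of at least 1 TPM, as deposited (circles) and after median-of-ratios scaling (diamonds). The differences run from -0.03 for Tnfrsf11a to -4.02 for Dcstamp as deposited, and the dotted line marks the median of all genes tested at 0.19.

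The genes whose profile over the 6 libraries was most like that of Dcstamp, by Pearson correlation of log2(TPM + 1) among 9263 genes with a mean of at least 5 TPM, were Fzd7, Dok7, Cd109, Zranb3 and Xylt1 (0.998 to 0.996). Dok7 was at 1.28 TPM on average in KO and 42.1 TPM in WT. For Tmem178 the nearest were Lrrc32, Cd276, Atp6ap2, Daglb and Tmem43 (0.99962 to 0.998). Lrrc32, which encodes a docking receptor of latent TGF-beta, had 0.0373, 0.241 and 0.0533 TPM in KO 1, 2 and 3. In WT 1, 2 and 3 it had 10.5, 19.8 and 5.19 TPM. Like Tmem178, it was highest in the library numbered 2 of each genotype. Daglb, a diacylglycerol lipase gene, averaged 30.8 TPM in KO and 102 TPM in WT. All 10 genes were lower in KO, which follows from picking those most like 2 genes that are lower in KO. Dok7, Cd109, Lrrc32 and Cd276 averaged below 5 TPM in KO and so passed the filter only through their WT values. With 6 points split by genotype many genes reach high values, so these correlations are a description only.

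**Figure D4:**
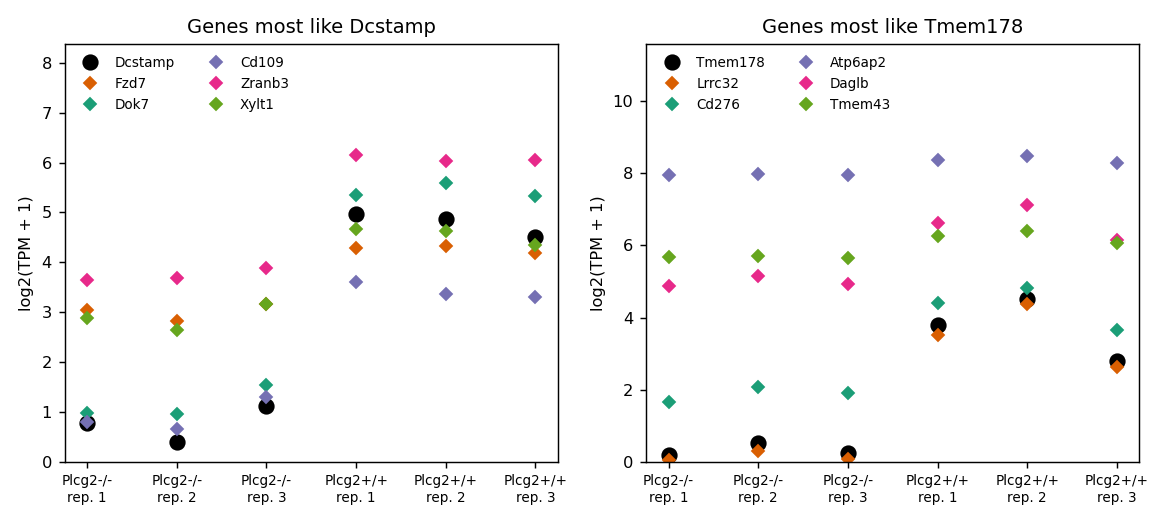
log2(TPM + 1) in each library, KO at the left and WT at the right, for Dcstamp (left panel, black) and Tmem178 (right panel, black) with the 5 genes most like each. The correlations over the 6 libraries range from 0.996 to 0.998 for Dcstamp and from 0.998 to 0.99962 for Tmem178.

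The comparison of KO with WT was then followed through other genes of the osteoclast pathway, as the plot of list genes shows. The lists were drawn up by function, with earlier results of these data known, and fitted with all 12652 genes. Of the 152 tested genes in the 10 lists, 40 rose and 28 fell (44.7% called, against 20.9% of all genes tested). Shares called in the lists are a description only, since the lists were not blind to the data or matched to all genes in level. The counts include Plcg2, the gene knocked out. The median log2 difference was 0.10 in the lists and 0.19 over all genes tested. The split depended on scale, with 21 higher and 32 lower after median-of-ratios scaling. Counts were 11 and 14 without KO 1, 16 and 15 without KO 3, 15 and 15 without WT 1, and 22 and 16 without WT 2. Of the 52 called genes that the naming rule picked, 18 were called in every fit without 1 library, and these are given with their values. Of the other 16 called genes, chosen for mention after their values were seen, 6 were called in every such fit (Ccl2, Cd200, Itga5, Itpr1, Itpr3 and Pxn).

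**Figure D5:**
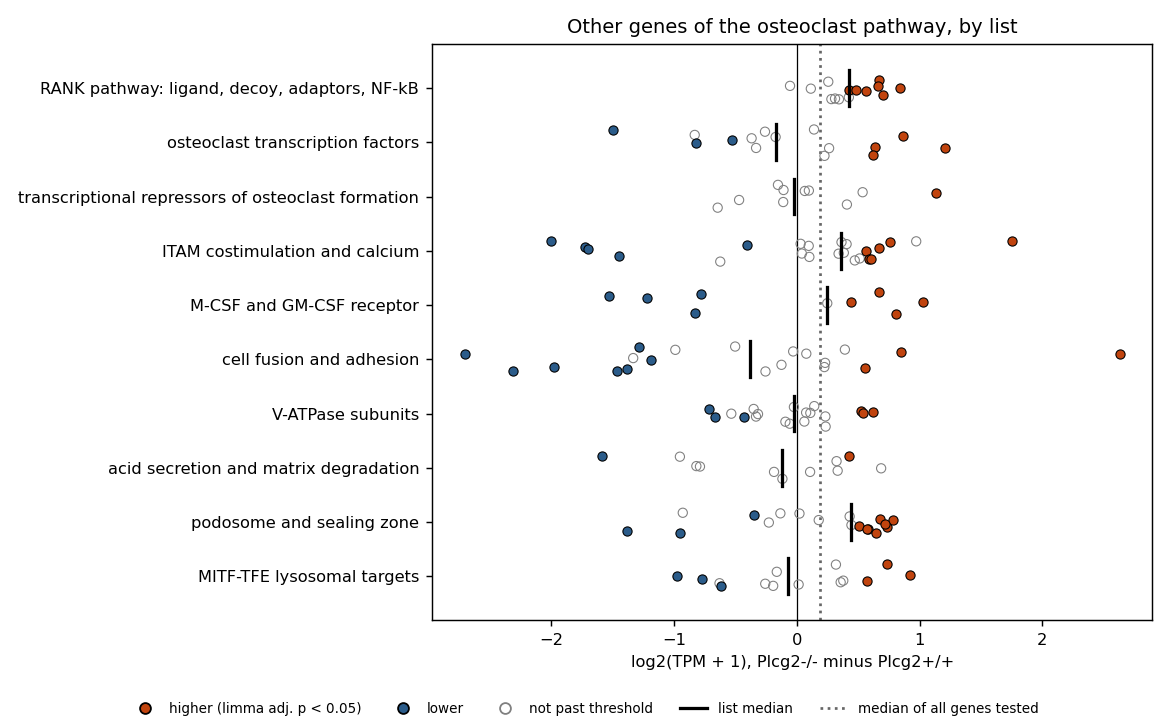
Difference in log2(TPM + 1), KO minus WT, for each tested gene of the 10 lists, filled where the limma adjusted p was below 0.05 (orange higher, blue lower), with a black bar at the list median and a dotted line at the median of all genes tested (0.19). The RANK list lies mostly to the right with 7 genes higher, and the fusion and adhesion list has 7 genes lower and 3 higher.

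Below RANK, some genes of its adaptors and of NF-kB, the transcription factor that RANK activates, were called higher. Only Nfkb2 kept its call in every fit without 1 library. Nfkb2, the precursor of a non-canonical NF-kB subunit, rose to 52.9 ± 2.03 TPM in KO, against 29.3 ± 3.98 TPM in WT (SD, n = 3 each; limma adjusted p = 0.00624). Traf6, the RANK adaptor needed for osteoclast formation in mice, was at 10.3 ± 2.11 TPM in KO and 7.85 ± 0.791 TPM in WT and did not pass (limma, adjusted p = 0.193). Of 14 tested genes in the list, 7 rose (50.0%) and 0 fell by limma, against 15.6% higher and 5.31% lower over all genes tested. At an unadjusted limma p below 0.05 the counts were 9 and 0. The median log2 difference was 0.42, against 0.19 over all genes tested. After median-of-ratios scaling or quantile normalization 2 were higher (14.3%). Called beside Nfkb2 were Rela, Nfkb1, Tab2, Relb, Traf2 and Traf3, while the kinase genes Ikbkb and Chuk did not pass (limma, adjusted p = 0.103 and 0.577). The list had 1 call without KO 1, KO 3 or WT 1, 2 without WT 2 and 4 without KO 2. Calls were lost without each of those 5 libraries by Rela (limma, adjusted p = 0.0587 to 0.111), Relb (0.0539 to 0.0793) and Traf2 (0.0548 to 0.0921). Tab2 (0.0542 to 0.118) was lost without any library but KO 2, and Nfkb1 (0.0642 to 0.0914) without KO 1, KO 3 or WT 1. Traf3 was lost without KO 1, KO 3, WT 1 or WT 2 (limma, adjusted p = 0.0592 to 0.0944).

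Among osteoclast transcription factors, Nfatc1 and Fos moved in opposite directions. Nfatc1 had 24.6, 20.4 and 22.4 TPM in KO and 11.6, 10.2 and 13.97 TPM in WT libraries, so every KO value was above every control. Nfatc1 rose by 0.87 ± 0.14 (SE) in log2(TPM + 1) (limma, adjusted p = 0.00946). Fos, the AP-1 factor that mouse osteoclasts require, had 7.59, 6.12 and 6.34 TPM in KO and 20.8, 20.8 and 20.1 TPM in WT libraries. Fos fell by 1.49 ± 0.12 (SE) in log2(TPM + 1) (limma, adjusted p = 0.00096). Cebpa, a myeloid lineage factor, fell to 79.3 ± 8.99 TPM in KO, against 141 ± 4.70 TPM in WT (limma, adjusted p = 0.00536). Of 15 tested genes, 4 rose (Nfatc1, Spi1, Stat5a and Tfec) and 3 fell (Fos, Cebpa and Id2), with a median log2 difference of -0.17. Higher and lower calls were 2 and 4 after median-of-ratios scaling, 4 and 6 after quantile normalization, and 2 and 5 with that scaling and the replicate block.

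Tfec, the myeloid relative of Mitf, was at 106 ± 21.0 TPM in KO and 45.9 ± 13.2 TPM in WT (limma, adjusted p = 0.0196, but 0.0756 without KO 1 and 0.0658 without KO 3). The relatives Tfeb and Tfe3 did not pass (limma, adjusted p = 0.458 and 0.162), nor did Jund and Junb (limma, adjusted p = 0.110 and 0.280). Jund passed after median-of-ratios scaling and quantile normalization (limma, adjusted p = 0.0402 and 0.0282) and Junb after quantile normalization (0.0374). Spi1, which encodes PU.1, lost its call without KO 1, KO 3, WT 1 or WT 2 (limma, adjusted p = 0.0588 to 0.0904). Stat5a lost its call without the same 4 libraries (0.0598 to 0.0698), and Id2 without any library but KO 2 (0.0729 to 0.117). Transcription factor counts, higher and lower, were 1 and 2 without KO 1, 1 and 3 without KO 3, and 2 and 2 without WT 1 or WT 2. Of 10 repressors of osteoclast formation, 1 rose and 0 fell by limma, 2 and 1 at an unadjusted p below 0.05. Ikzf1, the lymphoid and myeloid repressor Ikaros, rose to 37.8 ± 5.61 TPM in KO, against 16.8 ± 4.05 TPM in WT (limma, adjusted p = 0.0107). Irf8 and Nfe2l2 did not pass (limma, adjusted p = 0.797 and 0.505), and 1 repressor was lower after median-of-ratios scaling, with the replicate block, without KO 2 and without WT 3.

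In the ITAM and calcium arm, 6 of 23 tested genes rose and 5 fell (47.8%, median log2 difference 0.36), with 5 and 5 after median-of-ratios scaling. Lat2, a membrane adaptor of immune receptors, fell to 43.6 ± 1.24 TPM in KO, against 181 ± 35.9 TPM in WT (SD, n = 3 each; limma adjusted p = 0.00096). Orai1, the pore of store-operated calcium entry, rose to 86.5 ± 5.20 TPM in KO, against 54.1 ± 2.59 TPM in WT (limma, adjusted p = 0.00671). Plcg2 itself fell by 1.45 ± 0.14 (SE) in log2(TPM + 1) (limma, adjusted p = 0.00141). It is counted among the genes that fell although it is the gene knocked out. The other calls were Plcg1, Itpr3 and Trem2, lower, and Fcer1g, Ppp3ca, Ppp3cb, Itpr1 and Vav3, higher. Trem2 lost its call without KO 1 or KO 3 (limma, adjusted p = 0.0503 and 0.0516), Fcer1g without KO 1 or WT 1 (0.0789 and 0.0775), and Ppp3ca without these or KO 3 (0.0630 to 0.0720). Plcg1 (limma, adjusted p = 0.0569 to 0.128) and Vav3 (0.0599 to 0.116) lost theirs whichever library was left out, and Ppp3cb without KO 1, KO 3, WT 1 or WT 2 (0.0652 to 0.0962). Tyrobp, the ITAM adaptor DAP12, was at 2551 ± 144 TPM in KO and 1801 ± 277 TPM in WT and did not pass (limma, adjusted p = 0.0588). It passed without WT 3 (limma, adjusted p = 0.0285), after quantile normalization (0.0236) and over genes of at least 5 TPM (0.0433). Pirb did not pass (limma, adjusted p = 0.573). Counts, higher and lower, were 2 and 3 without KO 1, 3 and 3 without KO 3, 2 and 4 without WT 1, and 9 and 4 without WT 3. The arm counted 4 and 4 without WT 2, and 9 and 5 with the replicate block.

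Csf2ra and Csf2rb, receptor genes for GM-CSF, the factor given to both genotypes, were called lower (limma, adjusted p = 0.0163 and 0.0199). Neither call held in every fit without 1 library. Csf1r, the M-CSF receptor that osteoclast precursors depend on, did not pass at 687 ± 89.8 TPM in KO and 580 ± 94.4 TPM in WT (limma, adjusted p = 0.312). Csf2rb2, a mouse receptor chain closely related to Csf2rb, is not taken here as a GM-CSF receptor gene. Csf2rb2 fell to 70.3 ± 6.78 TPM in KO, against 209 ± 54.4 TPM in WT (limma, adjusted p = 0.00376). The signalling genes Pik3cd and Grb2 rose, Pik3cd to 102 ± 14.6 TPM in KO, against 49.6 ± 6.40 TPM in WT, and Grb2 to 212 ± 14.8 TPM in KO, against 121 ± 14.05 TPM in WT (limma, adjusted p = 0.00645 and 0.00738). Of 9 tested genes, 4 rose (with Akt1 and Pik3r1) and 4 fell (Csf2ra, Csf2rb, Csf2rb2 and Csf1), against 3 and 4 after median-of-ratios scaling. Csf2ra lost its call without KO 1, KO 3 or WT 1 (limma, adjusted p = 0.0575 to 0.0709), and Csf2rb without KO 1, WT 1 or WT 2 (0.0523 to 0.0706). Akt1 lost its call without any library but KO 2 (0.0545 to 0.137), Csf1 without KO 3, WT 1, WT 2 or WT 3 (0.0501 to 0.0818) and Pik3r1 without KO 1 (0.0594). Counts, higher and lower, were 2 and 2 without KO 1, 3 and 2 without KO 3 or WT 2, and 3 and 1 without WT 1. Whether reads were shared between Csf2rb and Csf2rb2 was not tested.

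Of 20 tested fusion and adhesion genes, fewer rose (3) than fell (7) (50.0%), with a median log2 difference of -0.38, and the counts were 2 and 7 after median-of-ratios scaling. With the replicate block they were 3 and 10, and with the block and that scaling 2 and 11. Cd36, a scavenger receptor known to take part in macrophage fusion, had 86.2, 103 and 133 TPM in KO and 849.7, 850.5 and 465 TPM in WT libraries. Cd36 fell by 2.71 ± 0.28 (SE) in log2(TPM + 1) (limma, adjusted p = 0.00166). Cd9, a tetraspanin that in mice restrains macrophage fusion, fell to 1229 ± 275 TPM in KO, against 3354 ± 221 TPM in WT (limma, adjusted p = 0.00342). The integrin chain Itgb2 fell to 605 ± 94.1 TPM in KO, against 1369.8 ± 125 TPM in WT (limma, adjusted p = 0.00391). Cd47, the ligand of SIRPalpha and a partner in fusion, rose to 297 ± 31.9 TPM in KO, against 164 ± 17.1 TPM in WT (limma, adjusted p = 0.00696). Sirpa itself and Itgb1 did not pass (limma, adjusted p = 0.883 and 0.464). The other calls were Adam8, Cd200, Itga5 and Itgav, lower, and Ccl2 and Cd200r1, higher. Adam8 lost its call without KO 1, KO 3, WT 1 or WT 2 (limma, adjusted p = 0.0756 to 0.0902), and Cd200r1 without KO 1, KO 3 or WT 2 (0.0673 to 0.0909).

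Other V-ATPase genes were called in both directions, and of 19 tested subunit genes 3 rose and 3 fell (31.6%, median log2 difference -0.02). Tcirg1, the a3 subunit of the osteoclast pump, was at 763 ± 73.7 TPM in KO and 1268 ± 234 TPM in WT (limma, adjusted p = 0.0303). Atp6ap2 and Atp6v0a1 were also called lower, and Atp6v0d1, Atp6v1g1 and Atp6v0a2 higher. None of the 6 calls held in every fit without 1 library, and the list had 0 calls without KO 1 or WT 1, 1 without KO 3 or WT 2, and 3 without KO 2. At an unadjusted p below 0.05, 3 were higher and 5 lower with all libraries. The 3 increases were lost after median-of-ratios scaling, where 5 were lower. Calls were lost without KO 1, KO 3, WT 1 or WT 2 by Tcirg1 (limma, adjusted p = 0.0775 to 0.103) and Atp6v0d1 (0.0770 to 0.107). Without these or KO 2 they were lost by Atp6ap2 (0.0585 to 0.112), Atp6v0a1 (0.0611 to 0.136) and Atp6v1g1 (0.0609 to 0.116), and Atp6v0a2 lost its call without KO 1 or WT 1 (0.0740 and 0.0501). The abundant pore subunit genes Atp6v0c and Atp6v0b did not pass (limma, adjusted p = 0.580 and 0.122), though Atp6v0b passed with the replicate block and median-of-ratios scaling together (0.0389).

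Ctsk, cathepsin K, the collagen-degrading protease of osteoclasts, was lower along with Acp5. Ctsk had 47.9, 68.8 and 75.4 TPM in KO and 158, 255 and 173 TPM in WT libraries, with no overlap. Ctsk fell by 1.59 ± 0.24 (SE) in log2(TPM + 1) (limma, adjusted p = 0.00637) and passed in each fit without 1 library. Of 11 tested genes of acid secretion and matrix degradation, Ctsk alone fell and Rab7 alone rose (18.2%, median log2 difference -0.12). Rab7 lost its call after median-of-ratios scaling (limma, adjusted p = 0.186) and without any library but WT 3 (0.0516 to 0.117). Clcn7, the chloride transporter of the resorbing membrane, did not pass (limma, adjusted p = 0.110). Mmp14 did not pass either at 88.7 ± 56.8 TPM in KO and 139 ± 5.76 TPM in WT (limma, adjusted p = 0.165, 0.00501 without KO 2). Counts, higher and lower, were 0 and 3 without KO 2, 2 and 1 without WT 3, 0 and 1 without any of the other 4 libraries, and 2 and 2 with the replicate block.

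Genes of podosomes and the sealing zone, the actin structures by which osteoclasts hold to bone, gave 8 genes of 18 that rose and 3 that fell (61.1%, median log2 difference 0.44). The genes that fell were Itgav, Cttn and Ptk2b. The 6 most abundant that rose were Arpc2, Cdc42, Rac1, Rac2, Fermt3 and Tln1, with log2 differences of 0.51 to 0.78. Higher and lower calls were 4 and 3 after median-of-ratios scaling, and 2 and 3 after quantile normalization. Counts, higher and lower, were 1 and 1 without KO 1, 3 and 1 without KO 3, 2 and 2 without WT 1, and 5 and 2 without WT 2. Arpc2, Rac1 and Tln1 lost their calls without KO 1, KO 3, WT 1 or WT 2 (limma, adjusted p = 0.0587 to 0.115). Cdc42 lost its call without KO 1, KO 3 or WT 1 (0.0576 to 0.0704), and Rac2 and Fermt3 without KO 1 or WT 1 (0.0569 to 0.0706). Cttn lost its call without KO 1, KO 2 or KO 3 (limma, adjusted p = 0.0565 to 0.0697), and Ptk2b whichever library was left out (0.0592 to 0.146). Rhoa and Gsn did not pass (limma, adjusted p = 0.0587 and 0.418). Rhoa passed with the replicate block (limma, adjusted p = 0.0380), without KO 2 (0.0455) and without WT 3 (0.0444).

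Lysosomal genes known as targets of MITF and its relatives moved both ways, with 3 of 14 rising and 3 falling (42.9%, median log2 difference -0.07), and 2 and 3 after median-of-ratios scaling. Rragd, a GTPase of lysosomal nutrient sensing and a target of these factors, rose to 11.3 ± 0.632 TPM in KO, against 5.53 ± 0.851 TPM in WT (limma, adjusted p = 0.00647). Gpnmb, a glycoprotein gene driven by MITF, was at 4694 ± 456 TPM in KO and 9506 ± 3000.0 TPM in WT (limma, adjusted p = 0.0375, 0.0554 with the replicate block). Ctsd and Cd63 were called lower but not with the replicate block (limma, adjusted p = 0.0793 and 0.0522), and Lamp1 and Rragc were called higher. Ctsb and Hexa did not pass (limma, adjusted p = 0.678 and 0.114). Calls were lost without any library but WT 3 by Gpnmb (0.0537 to 0.129) and Ctsd (0.0543 to 0.138), and whichever library was left out by Cd63 (0.0528 to 0.116). Lamp1 lost its call without KO 1, KO 3 or WT 1 (0.0743 to 0.0882), and Rragc without these or WT 2 (0.0542 to 0.0806). Counts, higher and lower, were 1 and 0 without KO 1, KO 3 or WT 1, 2 and 0 without WT 2, 3 and 0 without KO 2, and 3 and 1 with the replicate block.

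Of 9 marker lists, 3 had summed levels that did not overlap between the genotypes. The 6 mature osteoclast markers summed to 787 to 927 TPM in KO and 1193 to 1629 TPM in WT libraries, mostly Tcirg1, with Calcr and Mmp9 below 1 TPM. Ctsk, Car2 and Mmp9 also lay lower in KO. Nfatc1, in the same list, went the other way, at 20.4 to 24.6 TPM in KO and 10.2 to 13.97 TPM in WT. The summed level of 5 border macrophage markers was 369 to 596 TPM in KO and 181 to 279 TPM in WT libraries, carried by Mrc1 and Pf4, while Cd163, F13a1 and Lyve1 stayed below 1 TPM. The summed level of 7 astrocyte markers was 29.1 to 40.8 TPM in KO and 13.99 to 21.9 TPM in WT libraries, carried by Aldh1l1, with Gja1 below 1 TPM. Sums of oligodendrocyte lineage, neuron, endothelial, fibroblast and dendritic cell markers overlapped between genotypes, at no more than 77.3, 10.8, 29.1, 3.29 and 4.56 TPM in KO and 112, 13.4, 24.0, 2.22 and 3.71 TPM in WT. Summed levels of the 12 microglia markers also overlapped, at 5219 to 8081 TPM in KO and 4885 to 7776 TPM in WT. Single microglia markers went both ways, with C1qa higher in KO (866 to 2174 TPM, against 368 to 858 TPM in WT). Itgam was lower in KO (70.1 to 99.97 TPM, against 359 to 511 TPM in WT). The part of other cells in the differences was not tested.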

How the data were processed

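RNA was measured in 6 libraries, 3 Plcg2-/- and 3 Plcg2+/+, and the authors deposited TPM values by gene in 1 table, each column summing to 1000000. The build GRCm38.p6 and the tools R 4.0.4, DESeq2 1.30.1 and Salmon 1.3.0 are named in the submitters' processing notes; the annotation release and the steps between were not given in the sources used here. TPM keeps no depth, so no interval or count model was possible. Genotype and replicate number came from the sample titles. The table was put on the log2(TPM + 1) scale, and 12652 genes averaging 1 TPM or more were tested with limma 3.58.1 under R 4.3.3 (two-sided, with a prior variance that follows the mean; degrees of freedom were 4 residual and 2.97 prior), adjusted by Benjamini-Hochberg over all genes tested at a threshold of 0.05. Standard errors are the moderated ones. The fit was tested on simulated data with known changes. Tables were made with Python 3.11.15 and pandas 2.3.3. Positions come from GENCODE M21 (GRCm38), promoters from RefSeq (GRCm38.p6).

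The 9 genes and the 10 lists were chosen with earlier results of these data known. Named were the 9 genes, 16 further pathway genes, and in each list up to 6 called genes and 2 uncalled genes of highest mean TPM; other genes named in counts were added after their values were seen. Alternatives were other pseudocounts, filters, scalings and prior variances, a replicate block, a Y-linked covariate and leaving out each library.

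Libraries that share a replicate number deviated together from their genotype means, with correlations of 0.295, 0.193 and 0.147, each above 0.1. Between libraries of different numbers they ran from -0.195 to 0.00369. Deviations from a genotype mean cancel out within the genotype, so these correlations depend on each other and are weak ground for pairing. On that ground alone the numbers were treated as pairs, only in the replicate block and in differences between libraries of the same number. No block was in the main fit because no label links a number to a litter.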

Additional observations from a re-analysis of the deposited data

How the results depend on the processing

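Under the alternatives tried, log2 differences of the 7 fusion and osteoclast genes with a mean of at least 1 TPM moved by less than the spread between replicates, except as follows. Tmem178 was at -5.16 and -4.06 and Dcstamp at -5.14 and -4.51 with pseudocounts of 0.1 and 0.5. Mitf was at -0.45 after median-of-ratios scaling, with or without the replicate block, and at -0.47 after quantile normalization. Without 1 library the ranges were -1.50 to -1.11 for Acp5, -0.82 to -0.46 for Atp6v0d2, -4.20 to -3.83 for Dcstamp, -1.96 to -1.14 for Itgb3, -0.38 to -0.16 for Mitf, -3.83 to -2.97 for Tmem178 and -0.14 to 0.13 for Tnfrsf11a. Counts over all genes, higher and lower, were 1971 and 672. They were 1226 and 500 with no filter, 977 and 1001 after median-of-ratios scaling, 959 and 1031 after quantile normalization, 1222 and 823 rescaled without mitochondrially encoded genes, 1104 and 1139 with the replicate block and median-of-ratios scaling, and 825 and 370 with the Y-linked covariate. Without 1 library they were 618 to 2150 and 308 to 648. Over the pathway lists, 40 and 28 became 26 and 16 with no filter, 21 and 32 after median-of-ratios scaling, 21 and 34 after quantile normalization, 19 and 40 with the block and that scaling, and 15 and 16 with the covariate. Without 1 library they were 11 to 43 and 14 to 26. The replicate block alone gave 46 and 33, and 2483 and 815 over all genes. The cause of these shifts was not tested. With 3 libraries per genotype and no depth, values below 1 TPM (Ocstamp, Oscar) cannot be judged.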
